A study of Homo sapiens with 10 samples.

Results

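Positions 351 to 679 of human 18S rRNA, labelled as the end of the 5′ domain, were examined in RibOxi-seq libraries of PA1 cells. These 329 positions were taken by their numbers alone, from 1869 positions in 18S and 6939 in 18S and 28S together, and they hold 14 of the 40 known 2′-O-methylation sites of 18S in the site list used by the study (106 in both rRNAs). The known sites are U428, G436, C462, A468, A484, G509, A512, C517, A576, A590, G601, U627, G644 and A668. In the hg19 (GRCh37) reference the segment lies on the unplaced contig GL000220.1 at 109428-109756, inside the 18S gene of a ribosomal DNA unit, and again at 153400-153728 in the other copy on that contig, so fragments of the copies cannot be told apart. The reference base was the listed base at 14 of 14 sites.

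PA1 is a human line derived from an ovarian teratoma. All libraries came from total RNA of unmodified PA1 cells that was digested to fragments. In control libraries the fragments were ligated to linkers without oxidation, whereas in oxidized libraries the terminal base was first removed by β-elimination and unmethylated ends were then blocked with sodium periodate. The main experiment, sequenced on the NextSeq, has 3 control and 3 oxidized libraries (cell passage 6 for replicates 1 and 2 of each group, passage 4 for replicate 3), and a pilot from a smaller RNA input, sequenced on the MiSeq, has 2 and 2 (passage 7). The NextSeq replicate 3 libraries thus came from cells at another passage than replicates 1 and 2, and nothing in the labels says that libraries of the same passage came from separate cultures, so p-values measure the spread between these libraries, which may be technical.

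Ribose methylation of rRNA adds a methyl group to the 2′-oxygen of a base's sugar. It is placed by fibrillarin, the methyltransferase of box C/D small nucleolar ribonucleoproteins, and each box C/D snoRNA (SNORD) chooses its target by base pairing: the rRNA base opposite the fifth base before box D or D′ (consensus CUGA) is methylated. A methylated sugar resists nuclease cleavage on its 3′ side and resists periodate, so in RibOxi-seq such a base is seen as a pile of fragment 3′-ends after oxidation. The segment around U627 includes the strongly conserved loop of helix 18, close to the decoding centre of the small subunit.

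The sequences below show the sites on which the results turn, each with 10 bases on either side and the methylated or candidate base in capitals (18S sense strand, 5′ to 3′). They were chosen because U428 and G436 changed least in the pilot and A576 and A484 carried most oxidized counts. On the NextSeq C517 had the largest change with all controls, and U627 the fewest oxidized counts of the known sites. U354 was the only other position called on the NextSeq.
U354 (GL000220.1:109421-109441): uucgaacgucUgcccuaucaa
U428 (GL000220.1:109495-109515): aggguucgauUccggagaggg
G436 (GL000220.1:109503-109523): auuccggagaGggagccugag
A484 (GL000220.1:109551-109571): gcaggcgcgcAaauuacccac
C517 (GL000220.1:109584-109604): gagguagugaCgaaaaauaac
A576 (GL000220.1:109643-109663): uccacuuuaaAuccuuuaacg
U627 (GL000220.1:109694-109714): gcagccgcggUaauuccagcu

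The known sites are spaced 3 to 59 nt apart (median 16), and none lies in the first 77 nt of the segment. Their bases are A at 6 sites, G at 4, C at 2 and U at 2. With 4.26 known sites per 100 nt the segment is denser than positions 1 to 350 of 18S (2.29 per 100 nt) and positions 680 to 1199 (0.962 per 100 nt). This density is a property of the site list and not of the libraries.

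The guide stretches were searched in the snoRNA annotation of the same build. At 12 of 14 known sites the listed guide held a continuous run of at least 10 Watson-Crick pairs with the site opposite the fifth base before a CUGA box, with at most 1 mismatch allowed in the box. The stretches below are given for sites that differ in response, 5′ to 3′ in the snoRNA, with the base that faces the site in capitals.
SNORD68 for U428 (12 pairs, 16:89627842-89627925, plus strand): ucuccggAaucg
SNORD100 for G436 (10 pairs, 6:133137941-133138016, plus strand): ggcuccCucu
SNORD14B for C462 (14 pairs, 11:17097326-17097415, minus strand): ccuuccuugGaugu
SNORD83A for A468 (11 pairs, 22:39711218-39711312, minus strand): cugccuUccuu
SNORD16 for A484 (10 pairs, 15:66795150-66795248, minus strand): guaauuUgcg
SNORD93 for A576 (12 pairs, 7:22896232-22896305, plus strand): uuaaaggaUuua
SNORD90 for U354 (10 pairs, 9:125642492-125642602, minus strand): auagggcAga

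The other sites with such a run were G509 (SNORD11, 11 pairs), A512 (SNORD70, 12), G601 (SNORD103A, 10), U627 (SNORD65, 13, before a CAGA box), G644 (SNORD54, 11) and A668 (SNORD36B, 13). C517, listed with U56 (SNORD56), had a run of 1 pair at that spacing, and no transcript was matched for U62A/B (SNORD62A and SNORD62B), listed for A590. The 1 pair came from the best annotated SNORD56 transcript (2:154303327-154303397, minus strand, box UUGA). It describes that annotated copy and does not show that U56 fails to pair with C517. Over all 390 annotated SNORD transcripts, the longest run had a median of 11 pairs at the known sites and 6 at the other 315 positions. Runs of at least 10 pairs were found at 5 other positions, which is 1.59% of them against 2.3% of all 18S positions, known sites included. They were U354, A458, A460, G563 and U631. A458 and A460 face SNORD14 family members and U631 faces SNORD65, each before a box with 1 mismatch. Guides of these names are also listed for the nearby C462 and U627. U354 faces SNORD90 before an exact CUGA box. A run of pairs describes the letters and does not show that a snoRNA acts there.

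**Figure D1:**
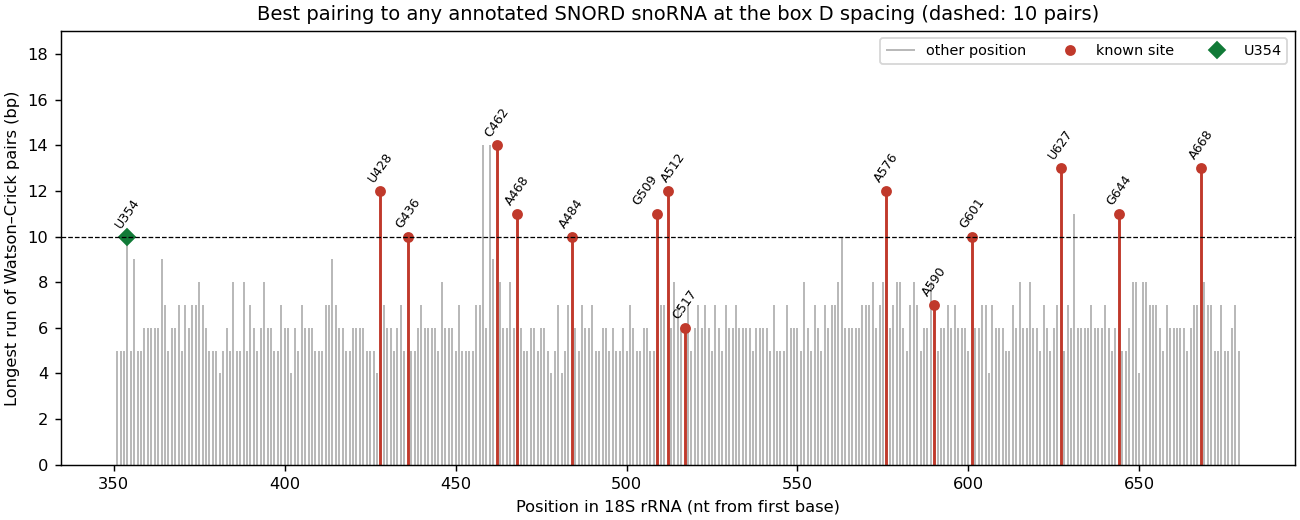
The longest run of Watson-Crick pairs to any annotated SNORD snoRNA is plotted for each position, in base pairs against nt from the first base of 18S, with known sites as red points, U354 as a green diamond and other positions as grey lines. Of the 14 known sites, 12 reach 10 pairs, C517 and A590 stay below, and U354 stands at 10.

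The deposited values are counts of fragment 3′-ends at each position. Library totals ranged from 72458614 to 80964624 (NextSeq control), from 12293410 to 13694386 (NextSeq oxidized), from 30392418 to 44061905 (MiSeq control) and from 1353768 to 1568883 (MiSeq oxidized). Low counts in the segment fell into small values and a step at 50: in the oxidized libraries 70 to 93 positions held 1 to 14 counts (25 to 49 of them exactly 2, and 0 exactly 1), 2 to 9 held 15 to 49, and 40 to 50 held 50 to 64. Totals of the control libraries and of NextSeq oxidized replicates 1 and 2 also exceed the sequencer output stated for the study. Those of NextSeq oxidized replicate 3 and of the MiSeq oxidized libraries do not. How many counts a read gives is thus not known. Where a count of 0 needed a limit, 50 counts were assumed for a read, which gives the wider limit. Levels between libraries were compared as CPM, counts scaled to a library total of 1e6. NextSeq control replicate 3 stood apart from replicates 1 and 2: among its counts at positions that are not known sites, 58.2% lay at A or U, against 24.0% and 23.2%. Results that rest on it are given with and without it. Counts also depend on how often a base is exposed and ligated, so an order of levels between sites is not an order of methylation.

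After oxidation almost all fragment ends counted in the segment lay at its known sites. In the NextSeq libraries known sites held 96.1% ± 0.461 of the segment's counts after oxidation (SD, n = 3) and 0.842% ± 0.752 without it (SD, n = 3), where control replicates 1, 2 and 3 stood at 0.407%, 0.410% and 1.71%. The lowest oxidized library stood at 95.6% and the highest control at 1.71%, so the groups did not overlap (p = 0.1 by a two-sided exact permutation test, which cannot give less here). In the MiSeq pilot the values were 75.9% ± 0.0241 and 0.521% ± 0.0828 (SD, n = 2 each; p = 0.333 by the same exact test, again its lower limit). Ranked by counts, the 14 leading positions of the segment were the 14 known sites in each NextSeq oxidized library. In the MiSeq oxidized libraries 14 and 13 of them were known sites, and in every control library there were 0.

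**Figure D2:**
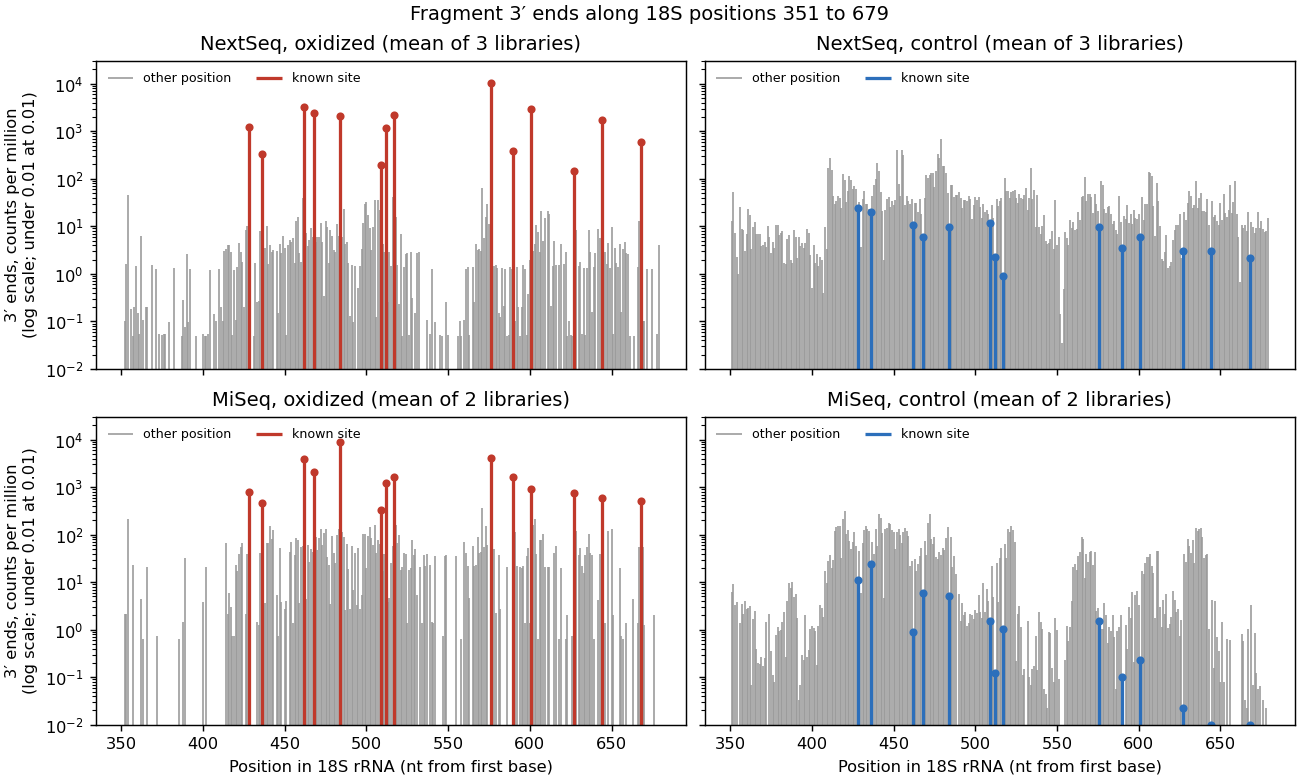
Mean 3′-end CPM (log scale, values under 0.01 drawn at 0.01) are plotted against position in nt, for oxidized and control libraries of each experiment, with known sites coloured and other positions in grey. After oxidation the known sites stand above nearly all other positions, whereas in control libraries they lie within or below the surrounding grey lines.

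The segment as a whole took 3.01% ± 0.287 of all 18S and 28S counts in the NextSeq oxidized libraries and 1.28% ± 0.112 in their controls (SD, n = 3 each; exact permutation test, two-sided, p = 0.1). Within 18S counts alone the direction turned, with the segment 0.113 percentage points lower after oxidation (difference of -0.113). In the MiSeq libraries the share was 3.68% ± 0.0922 after oxidation and 0.997% ± 0.0655 without (SD, n = 2 each; exact permutation test, two-sided, p = 0.333). Positions 680 to 1199 of 18S stood at 4.40% of NextSeq control and 1.09% of NextSeq oxidized counts, and positions 1 to 350 at 0.730% and 1.15%. On the MiSeq positions 680 to 1199 went the other way, at 2.85% of control and 3.76% of oxidized counts. There positions 1 to 350 stood at 0.277% and 0.553%. These shares were not tested.

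Position by position, each known site was higher in the NextSeq oxidized libraries. All 14 passed both thresholds (adjusted p under 0.05, and over 7 on the log2 scale; edgeR quasi-likelihood test on the whole table), against 1.53% of the 6718 positions tested in 18S and 28S. The study set the 7 to match the known sites that changed least in these NextSeq libraries. Passing it is therefore not independent support. At all 14 every oxidized CPM lay above every control CPM, which held for 1.65% of positions tested. Log2 fold changes ranged from 7.95 (SE 0.77) at G436 to 15.43 (SE 1.21) at C517, with a median of 12.67, beside a median of -2.25 over all positions and -1.04 over the 315 other positions of the segment. The baseline depends on the scaling: with library totals only, the median of all positions was -6.26 and that of the known sites 8.19. In that scaling U428, G436, G509, A590 and U627 stayed at or below 6.78 and were not called. Adjusted p-values ran from 0.000737 at A576 to 0.0359 at G509, A590, U627, G644 and A668 (edgeR). At an adjusted p of 0.0001 the Wald test of DESeq2 called 13 of the 14, without a value for G509, against 1.64% of 6050 positions.

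The first pair of sites, U428 and G436, sits in a stretch where control ends were frequent. U428, the SNORD68 target, had 19365, 13847 and 15244 counts in the NextSeq oxidized libraries and 1016, 1159 and 3450 in the controls. In CPM this was 1234 ± 198 against 24.7 ± 18.2 (SD, n = 3 each), a log2 fold change of 9.82 (SE 0.75, edgeR adjusted p = 0.00126). G436, the SNORD100 target, had 4588, 4425 and 3742 counts after oxidation and 1237, 1791 and 1605 without, or 327 ± 46.7 against 20.2 ± 2.70 CPM. Control replicate 3 was highest of the controls at every known site but G436. Without it the G436 change was 7.70 and that of U428 10.09.

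In the pilot the same pair changed less than the threshold. U428 had 1360 and 933 MiSeq oxidized counts against 374 and 427 in controls, a log2 fold change of 6.38 (SE 0.43, edgeR adjusted p = 0.00693). G436 had 896 and 479 against 880 and 881, which is 463 ± 154 against 24.5 ± 6.38 CPM (SD, n = 2 each) and a change of 4.51 (SE 0.44, edgeR adjusted p = 0.00693). Both were higher in each oxidized library once scaled to library size, as were 14.4% of positions tested on the MiSeq. Both lay under the log2 threshold of 7. G436 is the site whose raw control counts were as large as its oxidized ones.

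C462, A468 and A484 form the next group, with SNORD14B, SNORD83A and SNORD16 as their guides. SNORD14 (U14) is a box C/D snoRNA that also takes part in pre-rRNA cleavage. C462 had 32636, 47005 and 47492 NextSeq oxidized counts against 266, 126 and 2013 in controls, and 6262 and 5447 against 60 and 14 on the MiSeq. A468 had 25280, 35327 and 35293 against 120, 177 and 1058, and 3417 and 2766 against 293 and 160 on the MiSeq. A484 had 23217, 27886 and 29285 against 135, 97 and 1912, and 13145 and 12672 against 196 and 170 on the MiSeq. In CPM every oxidized library lay above every control at these 3 sites in both experiments, as at 1.65% of NextSeq and 14.4% of MiSeq positions tested. Their NextSeq log2 fold changes were 12.66, 13.03 and 12.23 (13.92, 13.95 and 14.03 without control replicate 3), and on the MiSeq 12.30, 8.71 and 11.05.

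G509, A512 and C517 are the most closely spaced known sites. G509, the SNORD11 target, was the weakest of the 3, with 2631, 2153 and 2843 NextSeq oxidized counts against 62, 170 and 2430 in controls. In counts the third control overlapped the oxidized libraries, and in CPM it did not (194 ± 16.8 against 11.7 ± 17.7, SD, n = 3 each). Its log2 fold change was 8.56 (SE 1.53, edgeR adjusted p = 0.0359) with all controls and 10.67 without control replicate 3. On the MiSeq G509 had 745 and 241 against 50 and 56 counts, a change of 8.04 that was no longer called when either control library was left out.

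A512, which faces SNORD70, gave 14985, 14889 and 15213 counts against 60, 90 and 374, the narrowest relative spread of counts among the oxidized NextSeq libraries of these 3 sites. Its NextSeq change was 13.24, and 13.85 without control replicate 3. On the MiSeq it had 2231 and 1384 against 2 and 6. C517 gave 25627, 29835 and 28585 counts against 54, 13 and 136 on the NextSeq, and 2625 and 2132 against 12 and 56 on the MiSeq. With all controls C517 had the largest NextSeq change of the known sites, 15.43 (2150 ± 251 against 0.902 ± 0.832 CPM). Without control replicate 3 it was 15.85, below G644 (17.29), A590 (16.08) and A668 (16.03).

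A576, A590 and G601 follow after the widest spacing, 59 nt from C517. A576, the SNORD93 target, carried most counts of the segment on the NextSeq, with 126229, 134538 and 145200 after oxidation against 536, 206 and 1412 without, or 10360 ± 735 against 9.55 ± 8.29 CPM (log2 fold change 14.29, SE 0.94, edgeR adjusted p = 0.000737). On the MiSeq A576 had 6793 and 5361 against 54 and 54. A590 had 4470, 5451 and 5012 counts against 4, 6 and 778, and G601, the SNORD103A target, 34013, 38169 and 44515 against 12, 162 and 1212. On the MiSeq A590 had 2469 and 2210 against 6 and 2, and G601 1579 and 1121 against 6 and 10. Control replicate 3 set the NextSeq size at A590: the log2 fold change was 11.37 (SE 2.44) with it and 16.08 without. At G601 it was 13.40 and 15.05.

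U627, G644 and A668 close the segment. U627 had the fewest NextSeq oxidized counts of the known sites (2005, 1738 and 2081) against 6, 60 and 615 in controls, and on the MiSeq 1247 and 922 against 2 and 0. G644, the SNORD54 target, had 18848, 23208 and 24757 against 6, 14 and 666. A668, the SNORD36B target, had 7257, 7336 and 8468 against 10, 6 and 464. Without control replicate 3 the log2 fold changes rose from 10.13 to 12.11 at U627, from 13.71 to 17.29 at G644 and from 12.68 to 16.03 at A668. Both MiSeq controls held 0 counts at G644 and A668, with 1110 and 656 oxidized counts at G644 and 714 and 798 at A668. With 3 reads (150 counts at the assumed 50 a read) per control library as the limit that a 0 allows, G644 was at least 143-fold and A668 at least 125-fold higher after oxidation. This covers counting error in the controls only.

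**Figure D3:**
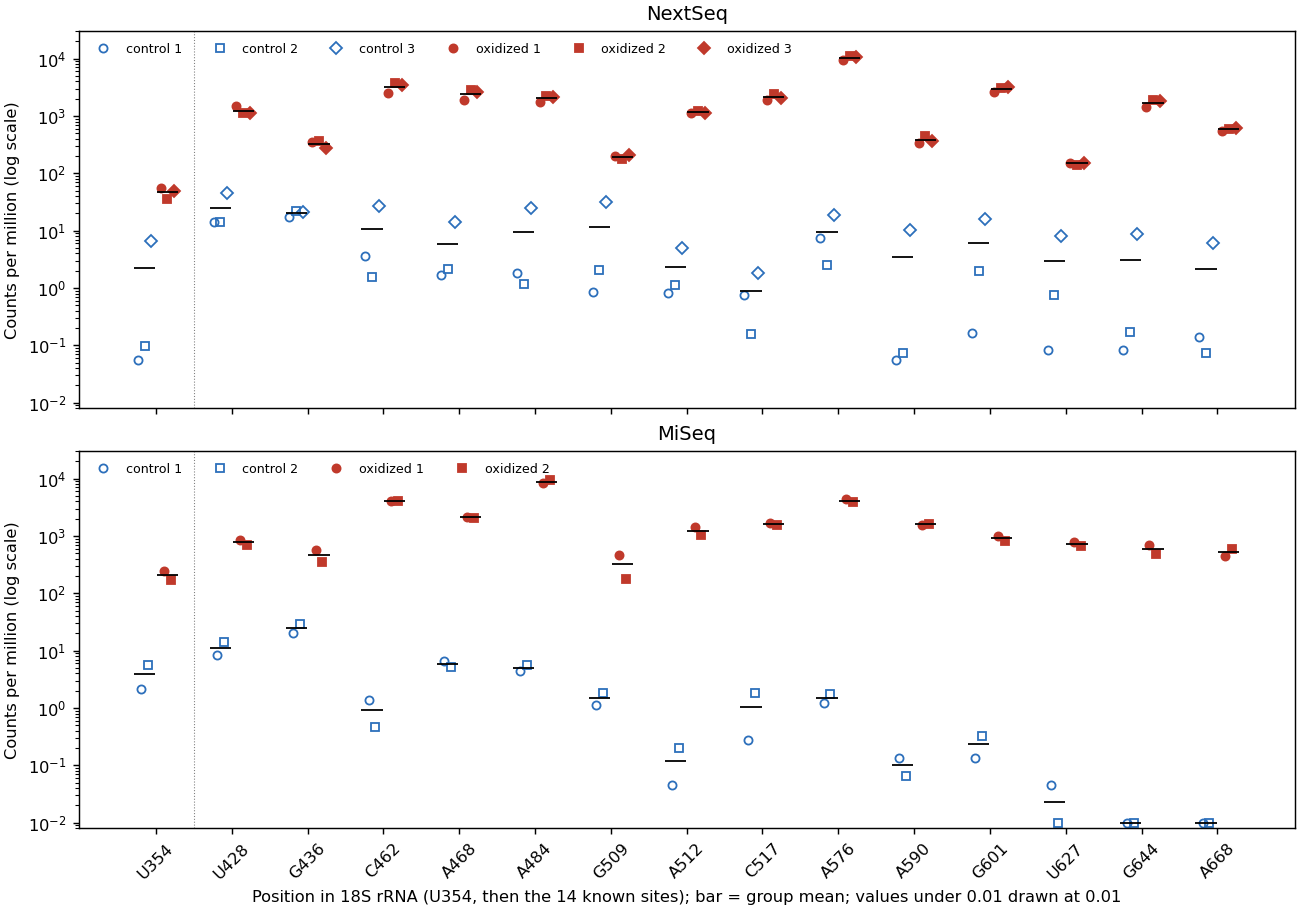
CPM of each library (log scale, values under 0.01 drawn at 0.01) at U354 and the 14 known sites, NextSeq above and MiSeq below, with open blue symbols for control libraries, filled red symbols for oxidized libraries and a black bar for the group mean. Red and blue symbols are apart at every site, and NextSeq control 3 (open diamonds) is the highest control except at G436.

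Leaving out NextSeq control replicate 3 raised the change at 13 of the 14 known sites, by up to 4.71 on the log2 scale, and moved the fold by over 1.5 times at 10. The median rose from 12.67 to 13.99, and all 14 sites were still called, as they were with cell passage as a covariate. Leaving out any other NextSeq library moved the fold by over 1.5 times at 0 sites. By base, the median NextSeq change was 12.85 at the 6 A sites, 14.04 at the 2 C sites, 10.98 at the 4 G sites and 9.98 at the 2 U sites. The ranges of A, C and G overlapped, and the U range (9.82 to 10.13) lay inside that of G (7.95 to 13.71).

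The MiSeq pilot called 12 of the 14 known sites, against 2.36% of 6661 positions tested (edgeR), and DESeq2 at an adjusted p of 0.0001 called the same 12, against 2.34%. All 14 had each oxidized CPM above each control CPM, which held for 14.4% of positions in this design of 2 against 2 libraries. Known sites changed by a median of 11.95 on the log2 scale, or 10.98 with G644 and A668 set at their lower bounds, beside a median of -4.76 over all positions. A512, A590, G601, U627, G644 and A668 had at most 10 counts in either MiSeq control, so their fitted changes depend on the prior count of the fit.

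**Figure D4:**
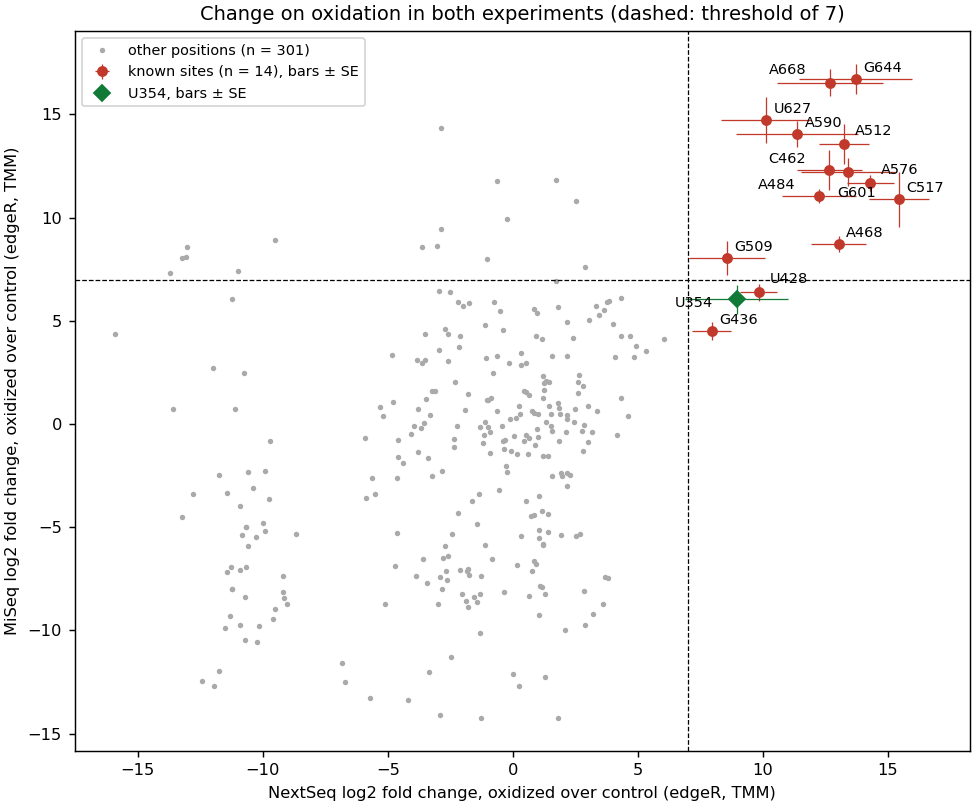
MiSeq against NextSeq log2 fold changes (oxidized over control, edgeR with TMM scaling) for the known sites in red and U354 in green, with bars of ± SE, and the other tested positions in grey. Of the known sites, 12 lie past the dashed threshold of 7 on both axes, and U428, G436 and U354 pass it on the NextSeq axis only.

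Whether a change differed between the experiments was tested as an interaction over all 10 libraries. The difference passed an adjusted p of 0.05 at 2 of the 14 known sites, against 8.2% of 6732 positions. It was 3.06 (SE 0.73, edgeR adjusted p = 0.0365) at U428 and 3.99 (SE 0.92, edgeR adjusted p = 0.0317) at A468, larger on the NextSeq under TMM scaling, whereas with library totals only it was -0.47 at U428 and 0.22 at A468. Neither was called when MiSeq control 1 or 2, MiSeq oxidized 1 or 2, or NextSeq control 1 or 2 was left out, and A468 was also not called without NextSeq oxidized 2 or 3. The differences themselves stayed between 2.73 and 3.56 at U428 and between 3.67 and 4.75 at A468 with any library left out. G436 (2.99, SE 0.88, edgeR adjusted p = 0.0716) and C517 (4.17, SE 1.24, edgeR adjusted p = 0.0742) missed the threshold. The experiments also differ in instrument, passage and RNA input, which cannot be told apart.

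The sites divided the oxidized counts differently in the experiments. Of the counts at the 14 known sites, A576 took 35.8% ± 1.08 on the NextSeq (SD, n = 3) and 14.8% ± 0.560 on the MiSeq (SD, n = 2). A484 took 7.07% ± 0.232 on the NextSeq and 31.8% ± 3.29 on the MiSeq, where it was the leading position. G601 (10.3% against 3.28%), G644 (5.87% against 2.13%), U428 (4.3% against 2.8%) and C517 (7.4% against 5.8%) were higher on the NextSeq. A590 (1.32% against 5.75%), U627 (0.516% against 2.64%) and C462 (11.1% against 14.4%) were higher on the MiSeq. At these sites, A576 and A484 included, no library of either experiment reached the range of the other. How often this holds at other positions was not counted. For A468 (8.41% and 7.56%), A512 (3.99% and 4.37%), A668 (2.04% and 1.88%), G436 (1.14% and 1.65%) and G509 (0.68% and 1.16%) the ranges overlapped. These shares add up to a whole, so the sites are not independent, and the differences were not tested.

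Among the other 315 positions U354 alone was called in the NextSeq libraries. U354 was singled out by the study from these same libraries, so its values are a description and not independent support. It had 728, 432 and 682 counts after oxidation and 4, 8 and 503 in the controls, or 46.7 ± 10.3 against 2.27 ± 3.80 CPM (SD, n = 3 each). Controls 1 and 2 were near 0, and control 3 was far above them. The log2 fold change was 8.95 (SE 2.07, edgeR adjusted p = 0.0359), 12.81 without control replicate 3 and 4.36 with library totals only. It was not called without control 1 or without any of the oxidized libraries. On the MiSeq U354 had 390 and 232 counts against 94 and 172, a change of 6.04 (SE 0.71, edgeR adjusted p = 0.00693). Its count was below that of every known site in each oxidized library. Leaving out control replicate 3 brought calls at A516 and A619, both outside the rule for named positions and chosen after their values were seen.

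The MiSeq libraries called 15 of 302 tested other positions, against 2.36% of all positions tested, and 0 of the 15 were called on the NextSeq. They were A489, U530, A531, A533, G535, A536, U542, C548, A555, G586, U591, A648, A650, A655 and G659. The highest were A650 with 280 and 114 oxidized counts against 4 and 2, A648 with 116 and 226 against 56 and 4, and U591 with 166 and 160 against 0 and 0. U530 had 100 and 52 against 10 and 2. The other 11 positions had between 2 and 54 oxidized counts in each library. U591, the base after A590, was at least 26.9-fold higher with the same assumed limit for the 0 in controls. On the NextSeq U591 had 0, 2 and 2 oxidized counts against 248, 187 and 3244 in controls, and 5 of the 15 positions held 0 counts in all NextSeq oxidized libraries. With counts divided by 50, calls were left at U530, U591 and A650.

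Of these 15 positions, 14 lie after C517, where the MiSeq controls held fewer ends. At the 156 other positions after C517 the median MiSeq control count was 60.0 and 56.0, against 340.0 and 334.0 at the 159 before it, and 22 and 27 positions after C517 were at 0, against 4 and 6 before it. In the NextSeq controls the medians were 566, 610 and 2242 after C517, against 962, 1023 and 3039 before, with at most 2 positions at 0 on either side. The dividing point was chosen after the values were seen. The part of these control levels in the MiSeq calls was not tested.

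The positions directly beside the known sites were described by their counts and medians. On the NextSeq 0 of 14 positions before a known site and 0 of 14 after it were called. Their median log2 fold changes of 2.84 and 0.85 lay above the -1.04 of the segment's 315 other positions. At an adjusted p under 0.05 alone, 2 of the 14 before were higher (U461 and A508) and 0 of the 14 after, against 3.02% of positions tested (edgeR). The positions before held 0.642%, 0.513% and 0.608% as many oxidized counts as the known sites, and those after 0.344%, 0.231% and 0.222%. On the MiSeq these values were 2.65% and 1.41% before and 2.98% and 3.90% after, with 0 called before and U591 called after. At an adjusted p under 0.05 alone 4 of the 14 before and 6 of the 14 after were higher on the MiSeq, against 10.6% of positions tested, and 1 before and 3 after were lower, against 51.6% (edgeR). U571, upstream of A576, was the leading other position after oxidation in NextSeq libraries 1 and 2 and both MiSeq libraries, with 971, 720 and 772 NextSeq counts and 496 and 576 MiSeq counts. In NextSeq oxidized replicate 3 it was G505, with 808.

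In control libraries the known sites were gaps. Each site's count was divided by the median of its flank, the nearest 10 positions upstream and 10 downstream, leaving out other known sites. The median of this ratio over the known sites was 0.0541, 0.0592 and 0.345 in NextSeq controls 1, 2 and 3, a mean of 0.153 ± 0.166 (SD, n = 3) that was 0.0567 without control 3. In each of these libraries 14 of 14 sites lay below 1. In the MiSeq controls the median was 0.110 and 0.0642, with 13 of 13 sites below 1, since at A668 the flanking median was 0. A ratio to a flanking median can fall below 1 at any position, and the share of other positions below 1 was not counted. The deepest gap was at G644 in NextSeq controls 1 and 2 (0.00583 and 0.0122) and at C517 in control 3 (0.0174). The shallowest were A576 in control 1 (0.518), G436 in control 2 (0.597) and U428 in control 3 (0.807). At U354 the ratio was 0.0128, 0.0231 and 0.552 on the NextSeq and 0.591 and 1.09 on the MiSeq, so in MiSeq control 2 the ratio was not below 1.

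One base before the known sites the ratio was 0.213 and 0.327 in NextSeq controls 1 and 2, but 1.03 in control 3 and 0.757 and 0.717 in the MiSeq controls. One base after them it lay between 0.943 and 1.53 in the 5 control libraries. The position with most counts was never a known site in a control: it was C479 in NextSeq controls 1 and 2 (72088 and 86546 counts, against 3039 in control 3), C441 in NextSeq control 3 (15576) and MiSeq control 2 (8976), and G420 in MiSeq control 1 (15566). After oxidation these positions held 114, 64 and 67 (C479), 68, 66 and 20 (C441) and 2, 2 and 0 counts (G420) on the NextSeq.

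**Figure D5:**
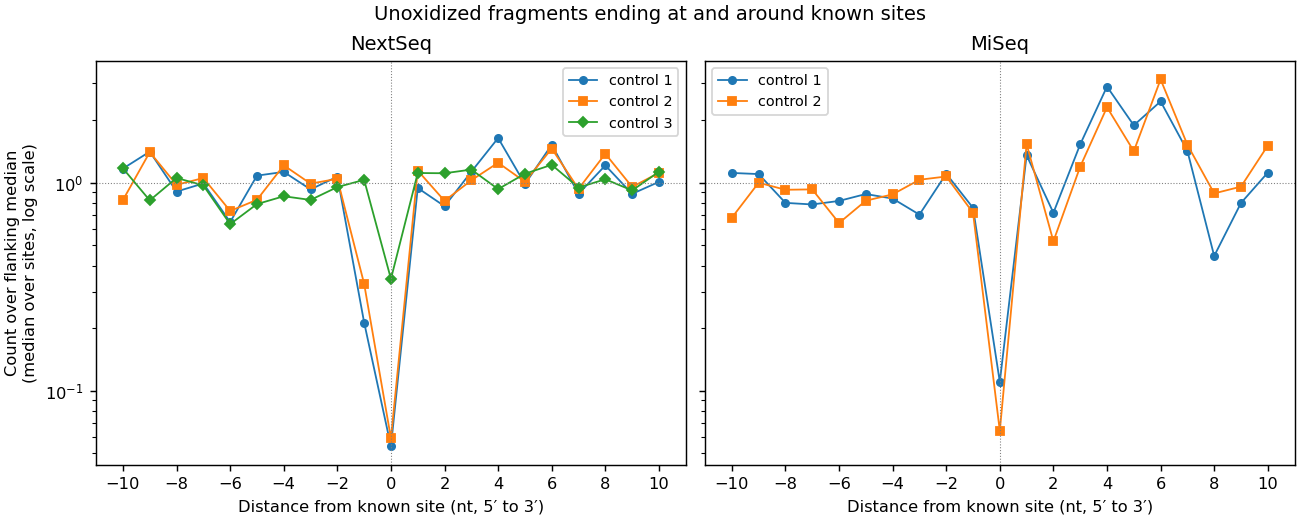
The count at each distance (nt, 5′ to 3′) from a known site over the flanking median is plotted on a log scale as the median over known sites, with a line for each control library. Each line drops at distance 0, to 0.0541 and 0.0592 in NextSeq controls 1 and 2 but to 0.345 in control 3, and only NextSeq controls 1 and 2 are also low at the base before.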

How the data were processed

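RibOxi-seq 3′-end counts were analysed in 10 libraries of PA1 cells, grouped by the labels into control and oxidized libraries of a NextSeq and a MiSeq experiment. The counts per position were deposited by the authors without normalization. Per the study's methods and the submitters' processing notes, the authors trimmed reads with cutadapt 1.12 and collapsed PCR duplicates by a randomer. They aligned with TopHat2 2.1.1 to hg19 (GRCh37) with 2 copies of each rRNA. Alignments were sorted with SAMtools 0.1.19 and converted with BEDtools, and sense 3′-ends were counted. Their DESeq2 tables and lists of positions (fold changes, p-values) were not used, and 0 per-sample columns were left unused. Lines naming no 18S or 28S position held 0 counts.

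From the counts, edgeR 4.0.16 (R 4.3.3) was run with TMM scaling and the quasi-likelihood test on positions with at least 1 count in the experiment, p-values being adjusted across both rRNAs (Benjamini-Hochberg). Calls required an adjusted p under 0.05 and more than 7 on the log2 scale, higher in oxidized. The 7 is the study's, which set it by the known sites with the lowest changes on the NextSeq. NextSeq and MiSeq were fitted separately, and their difference as an interaction over 10 libraries. Single values per library were compared by exact two-sided permutation tests. The scripts were tested on simulated data. Tables and figures were made with Python 3.11.15, pandas 2.3.3 and Matplotlib 3.10.9. Alternatives were DESeq2 1.42.0, the likelihood ratio test, other scalings and filters, counts divided by 50, 18S alone, passage as a covariate, the replicate number as a block, the study's adjusted p of 0.0001, other flanks and leaving out each library.

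Known sites, their bases and guides were read from the study's site list, and the listed coordinate differed from the position by 1 nt at 1 site (G601). Older guide names were matched to symbols through RefSeq, and snoRNA sequences and positions came from GENCODE on GRCh37. Named were all known sites, every other called position and the position with most counts per group. U461, A508, U571, G505, A516 and A619 lie outside that rule and were named after their values were seen. Members, lists and tests were chosen with earlier results of these data known. Limits for counts of 0 use 3 reads of an assumed 50 counts and cover counting error in the controls only.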

Additional observations from a re-analysis of the deposited data

Results flagged for a closer look

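The change on oxidation differed between the experiments by the interaction test at U428 (3.06 on the log2 scale, NextSeq minus MiSeq) and A468 (3.99), larger on the NextSeq under TMM scaling. Of all 6732 positions tested, 8.2% passed the same test, so passing it does not set these sites apart. At U428 and A468 every oxidized CPM lay above every control CPM in both experiments. The same held for 1.65% of positions tested on the NextSeq and 14.4% on the MiSeq. With library totals only the differences were -0.47 and 0.22, and neither was called when NextSeq control 1 or 2 or any MiSeq library was left out, nor A468 without NextSeq oxidized 2 or 3.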

How the results depend on the processing

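The 14 known sites called on the NextSeq were still called under the likelihood ratio test, RLE size factors, a minimum of 10 summed counts, counts divided by 50, 18S alone, the passage covariate, the replicate block and each library left out. DESeq2 called 13, with G509 given no adjusted p, and library totals only gave 9. At an adjusted p under 0.0001 edgeR called 0 known and 0 other positions in either experiment, since its smallest adjusted p was 4e-04 on the NextSeq and 0.00555 on the MiSeq (2605 and 4439 positions at an unadjusted p under 0.05), whereas DESeq2 at that threshold called 13 known and 1 other on the NextSeq and 12 and 13 on the MiSeq. U354 was the 1 other NextSeq call, and library totals only gave 0 and leaving out libraries 0 to 3. The 15 other MiSeq calls became 3 with counts divided by 50, 9 with 18S only and 0 to 16 with a library left out, reaching 0 without control 1 or control 2. The 2 sites that differed between experiments became 5 with DESeq2, U428 and A468 among them. With library totals only 1 site was called, U627, but neither U428 nor A468, and U428 turned to -0.47. It was 0 sites with counts divided by 50 and 0 to 5 with a library left out. The cause of these moves was not tested.

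With the replicate number as a block, 14 known and 1 other position were called on the NextSeq, but 0 known and 0 other on the MiSeq and 0 in the interaction (smallest adjusted p 0.143 and 0.212). Libraries of the same number did not deviate together (correlations of 0.0286, -0.0174 and 0.00789 on the NextSeq and -0.0047 on the MiSeq), and NextSeq control 2 and control 3 correlated best with another number, so the numbers were not taken as pairs. Both NextSeq replicate 3 libraries share passage 4, and replicates 1 and 2 of both groups share passage 6.

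The known sites' excess of 95.3 percentage points of the segment's NextSeq counts was 88.9 when positions within 1 nt were added (MiSeq 75.4, then 69.8, and 76.7 with counts divided by 50). The segment's gain of 1.74 points of NextSeq library counts was -0.113 within 18S counts and 3.01 without the position with most oxidized counts, and the MiSeq gain of 2.68 was 6.40 and 2.88. The control gap of 0.153 lay between 0.124 and 0.169 with other flanks. The unknown number of counts per read, the 3 or 2 libraries a group and the scaling limit the precision: of the values that answer a comparison, 36 moved, 1 reversed and 85 did neither.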
